A study of Mus musculus with 8 samples.

Results

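The histone genes were measured by 70 array probes with 47 gene names, out of 41101 non-control probes with 27810 names, in gonads of E14.5 mouse embryos and in the RNA that an anti-DAZL antibody brought down from them. Members were chosen by a rule on gene names that used no measured value, though earlier results of these data were known. Names starting with Hist1h to Hist4h were taken as replication-dependent cluster histones (46 probes, 34 gene names). Those starting with H2af, H1f or H3f were taken as histone variants (24 probes, 13 gene names). RNA immunoprecipitation (RIP) was compared with its starting lysate (input) in 4 groups of 2 arrays: XX input, XX IP, XY input and XY IP. All groups came from lots of 50 gonads of strain MCH, with no further genotype or treatment given. The input was 5% of the lysate. Labelling with Cy3 started from 50 ng of RNA for the inputs and from 1 ng for the IPs. Whole gonads hold germ cells and somatic cells together, and a precipitation with a control antibody was not analysed here, so every change in the IP was relative to the input. DAZL, the precipitated protein, binds RNA in germ cells.

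Histones are the proteins on which DNA is wound. H2A, H2B, H3 and H4 form the core of the nucleosome, and H1 binds the linker DNA between nucleosomes. The replication-dependent genes lie in clusters, are transcribed in S phase and make mRNAs without introns that end in a stem-loop instead of a poly(A) tail. Variant genes such as H3f3a, H3f3b, H2afz and H2afv are expressed outside S phase too and make polyadenylated mRNAs. The kit used for labelling starts from an oligo(dT) primer, and whether the signal of a cluster gene came from transcripts with or without a poly(A) tail cannot be told from these arrays. A level belongs to its probe, and a higher level of one probe than of another is no measure of the genes' relative abundance.

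The start regions of 4 genes on which the results below turn are shown to let the classes be compared. They are the cluster genes Hist1h3d and Hist1h1a and the variant genes H3f3b and H2afv, each as the 120 bases before the RefSeq start on build GRCm38.p6, 5′ to 3′ on the gene's strand, with the letters CCAAT and TATAA (either strand) in capitals.
Hist1h3d (chr13:23575643-23575762, plus strand): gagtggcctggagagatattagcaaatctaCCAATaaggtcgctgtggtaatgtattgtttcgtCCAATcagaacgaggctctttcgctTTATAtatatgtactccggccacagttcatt
Hist1h1a (chr13:23763548-23763667, plus strand): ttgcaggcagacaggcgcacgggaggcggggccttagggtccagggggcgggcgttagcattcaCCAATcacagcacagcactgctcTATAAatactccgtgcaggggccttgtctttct
H3f3b (chr11:116024505-116024624, minus strand): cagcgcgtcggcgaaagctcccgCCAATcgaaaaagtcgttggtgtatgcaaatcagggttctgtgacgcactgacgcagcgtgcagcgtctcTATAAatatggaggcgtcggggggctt
H2afv (chr11:6444444-6444563, minus strand): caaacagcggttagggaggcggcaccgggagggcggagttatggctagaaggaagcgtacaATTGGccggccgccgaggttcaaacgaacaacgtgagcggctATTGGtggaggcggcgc
In the 250 bases before the start, where these letters can lie anywhere and overlap other motifs, CCAAT on either strand was found in 26 of 30 cluster promoters (86.7%), in 6 of 11 variant promoters (54.5%) and in 33.8% of the 32851 promoters in the table. TATAA on either strand was found in 19 cluster promoters (63.3%), in 1 variant promoter, that of H3f3b, and in 22.8% of all promoters. The promoters of 40 of the 47 member symbols were in the table. These letter matches describe the sequences, not any binding.

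Levels are given as log2 of the processed signal minus the log2 of the same array's 75th percentile. A change is the IP mean minus the input mean on that scale, with the standard error (SE) of the limma fit, and each p is two-sided and Benjamini-Hochberg adjusted across 18265 probes. An IP change was called at an adjusted p under 0.05 with a change of at least 4-fold, and differences between the sexes at an adjusted p under 0.05. The XX arrays lay on one slide and the XY arrays on another, and an effect of the slide cannot be told apart from that of sex. Between 16713 and 20391 probes were well above background on input arrays and between 6068 and 9468 on IP arrays. The lowest level that counted as above background was between -3.59 and -2.34 on input arrays and between 0.03 and 1.02 on IP arrays, so weak members could be seen in input only. The 2 arrays of a group differed more in the IPs, where the median SD over tested members was 0.62 (XX) and 0.59 (XY), than in the inputs, where it was 0.15 and 0.09. Among 5 sex-linked genes, Xist was called higher in XX input and Ddx3y in XY input. Of the 5, 1 was above background on the XX input arrays and 3 on the XY input arrays, so no fold is given.

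Most histone probes were seen in input, and variants were seen in the IP more often than cluster histones. In XX input 34 of 46 cluster probes and 17 of 24 variant probes were above background on both arrays, and in XX IP 12 and 12. The XY input gave 33 and 18, and the XY IP 11 and 13. On no array was a signal above background for 10 cluster and 4 variant probes. Of the probes seen on both XX input arrays, 35.3% of cluster probes and 70.6% of variant probes were also seen on both XX IP arrays, beside 33.9% of all probes. In XY the shares were 33.3%, 72.2% and 31.9%. By type, H2B had 8 of 10 probes seen in each input and 0 in either IP, and cluster H1 had 5 of 8 in each input, 0 in XX IP and 1 in XY IP. Of the 6 H3 variant probes, all seen in the inputs, 5 were kept in XX and 6 in XY. These shares depend on the level in input and were not tested.

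**Figure D1:**
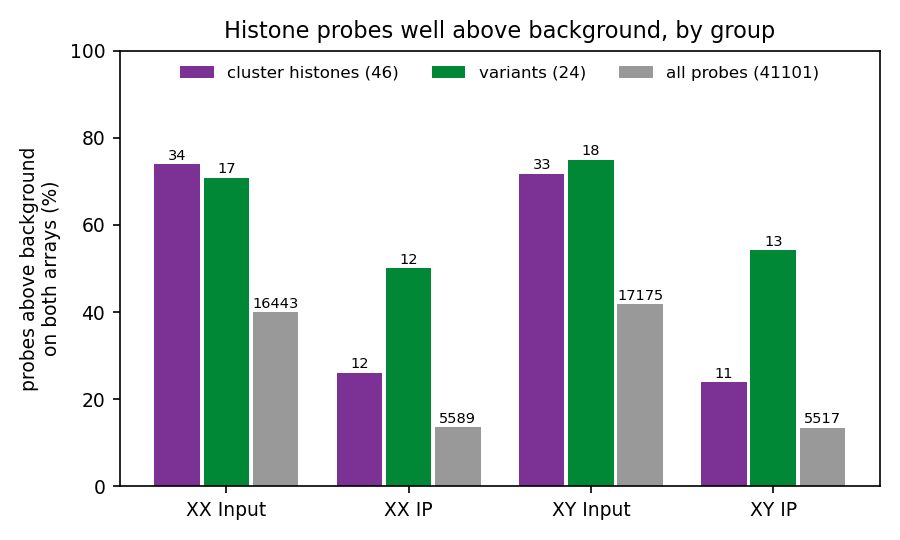
Percentage of probes well above background on both arrays of each group, for cluster histones, histone variants and all probes, with the number of probes above each bar. Cluster and variant shares are similar in the inputs (34 of 46 and 17 of 24 in XX), and the variant share is the higher one in the IPs (12 of 46 and 12 of 24 in XX).

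The median change of cluster histones lay below that of the variants in both sexes, by an amount that depended on the processing. Among the 53 members tested (34 cluster, 19 variant), the median change of cluster probes was -1.14 in XX and -1.59 in XY, and that of variant probes 0.33 and 0.67, where the median of all tested probes was 0.09 and -0.03. Without its H3 probes the cluster class had medians of -1.29 and -1.72. The variant median exceeded the cluster median by 1.48 in XX and by 2.26 in XY. For the 9 cluster and 12 variant probes above background on all 8 arrays the gap was 1.61 and 2.83. Many cluster probes entered the test through their input level alone, so these medians describe the probes tested and are no support for a class difference. The gap does not depend on the scaling constant of an array, but background correction by normexp, a model of signal plus background, left 0.20 in XX and 0.27 in XY, and setting all values under a common floor to that floor left 0.65 and 0.48. The place of the variants among all probes depended on the processing too. Under normexp the variant median was -1.0 in XX and -0.19 in XY, below the -0.00 and -0.04 of all tested probes, and over probes above background on all 8 arrays it was 0.32 in XX, below the 0.56 of all such probes, and 0.97 in XY, above their 0.41. In the XX IP, 4 members were called higher (2 cluster, 2 variant), where the share called higher over all tested probes was 14.0%, and 8 were called lower (6 cluster, 2 variant), where that share was 9.91%. In the XY IP, 6 members were called higher (2 cluster, 4 variant; 10.2% over all tested probes) and 14 lower (12 cluster, 2 variant; 7.68% over all). Of the falls, 4 of 8 in XX and 4 of 14 in XY had no IP array above background, so their p compares the input with background readings, and only bounds of 1.36 to 2.03-fold in XX and of 1.16 to 2.54-fold in XY can be given, less than the 4-fold limit. Both IP arrays were above background for 3 and 5 of the falls. The 8 falls in XX became 4 without XX IP replicate 1, where 8.01% of all tested probes were called lower, and 14 without XX IP replicate 2, where 13.1% were. Every called rise among cluster histones was of an H3 probe, and 5 of the 8 falls in XX and 9 of the 14 in XY were of H2A probes, which made up 11 of the 34 cluster and 9 of the 19 variant probes tested. Under scaling to the 50th percentile, which moved the median of all tested probes to -1.92 in XX and -1.90 in XY, 0 members were called higher (1.03% of all tested probes in XX and 1.20% in XY) and 36 and 29 lower (47.3% and 45.9% of all). Under normexp 0 were called higher, beside 0.433% and 0.356% of all. Among cluster probes, both IP arrays lay below both input arrays for 27 of 34 in XX and 24 of 34 in XY, and above them for 2 and 8. Of those lying below, 10 in XX and 8 in XY had no IP array above background. Among variant probes they lay below for 5 and 3 of 19 and above for 8 and 10. Over all tested probes the shares lying below were 37.5% and 37.1%, and those lying above 40.2% and 35.4%.

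**Figure D2:**
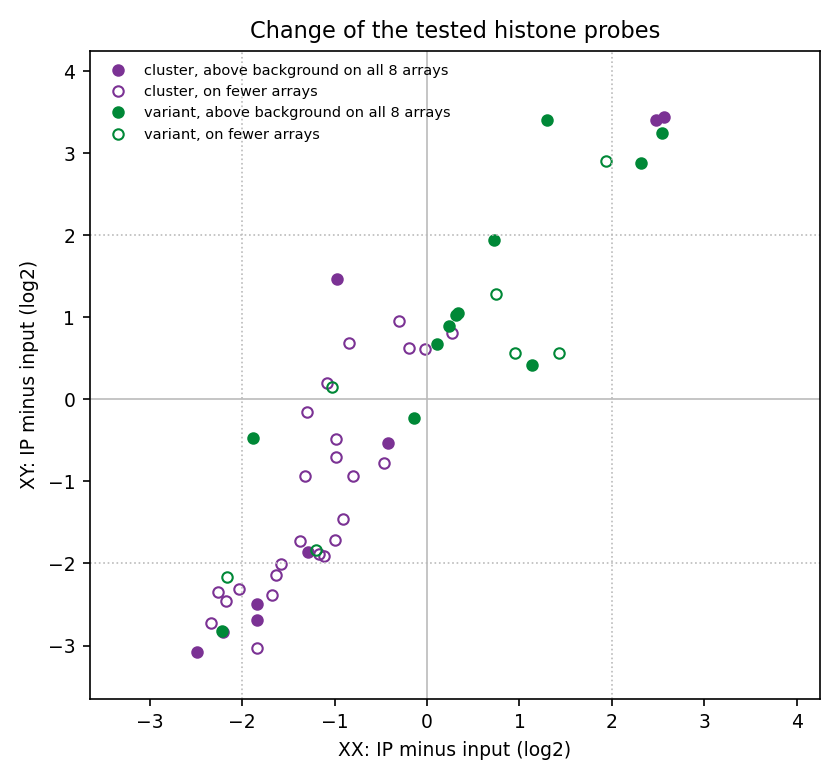
Change of each tested histone probe, IP minus input on the log2 scale, in XX (horizontal) against XY (vertical), with dotted lines at the 4-fold limit. Filled points were above background on all 8 arrays; 4 H3 probes lie past the 4-fold limit in both sexes at the top right, 1 more H3f3b probe and H2afv past it in XY alone, and H2A probes make up most of the points past it at the lower left.

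The members that rose in both sexes were H3 probes. Hist1h3d and Hist2h3c1 encode replication-dependent H3, and H3f3b encodes the variant H3.3. The Hist1h3d probe (A_51_P492488, mm8 chr13:23583575-23583634) read 5.48 and 5.59 in XX input, 7.58 and 8.44 in XX IP, 5.91 and 6.02 in XY input, and 9.24 and 9.49 in XY IP. Both IP arrays lay above both input arrays in each sex. It rose by 2.48 (SE 0.41, adjusted p = 0.00066) in XX and by 3.40 (SE 0.41, adjusted p = 0.00016) in XY. Hist2h3c1, on another chromosome (A_51_P359462, mm8 chr3:96332639-96332698), followed the same course, with 5.94 and 6.09 in XX input, 8.10 and 9.06 in XX IP, 6.53 and 6.53 in XY input, and 9.77 and 10.17 in XY IP. In XX it rose by 2.56 (adjusted p = 0.00066), and in XY it rose by 3.44 (adjusted p = 0.00018).

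H3f3b was read by 3 probes within 1217 bases of chromosome 11. A_52_P61786 read 6.91 and 7.01 in XX input, 9.09 and 9.91 in XX IP, 7.56 and 7.54 in XY input, and 10.67 and 10.93 in XY IP. A_51_P164667 read 7.39 and 7.75, 9.58 and 10.21, 7.90 and 8.05, and 10.70 and 11.01 in the same order. All 4 IP arrays were above all 4 input arrays for both probes, with rises of 2.54 and 2.32 in XX (adjusted p = 0.00055 and 0.00084) and of 3.25 and 2.88 in XY (adjusted p = 0.0002 and 0.00036). The other probe, A_52_P217875, changed by 1.94 in XX, under the 4-fold limit, with 1 of its 2 XX IP arrays above background, and rose by 2.90 in XY (adjusted p = 0.00036). Of 4205 other probes above background on all arrays, the one most like Hist1h3d over the 8 arrays, by the root mean square difference of centred log2 values, was Hist2h3c1 with a value of 0.07, followed by H3f3b A_52_P61786, also with 0.07. Histone genes of a type have near-identical coding sequences, probe sequences were not used here, and whether these probes bind each other's transcripts was not tested. The other cluster H3 probe, Hist1h3a, was not above background on any IP array. None of these rises was called under normexp, where Hist1h3d changed by 0.35 in XX and 1.62 in XY, Hist2h3c1 by 0.53 and 1.69, H3f3b A_52_P61786 by 0.39 and 1.34, and H3f3b A_51_P164667 by 0.17 and 1.10. Nor was any under scaling to the 50th percentile, which lowers all probes of a sex by 1 amount and left them above input by 0.32 to 0.55 in XX and by 1.01 to 1.58 in XY, A_52_P217875 apart, which was at -0.07 and 1.04. The XX call of A_51_P164667 was also lost under scaling to the detected probes (1.90) and quantile normalization (2.0), and the XY call of A_52_P217875 with a common floor (1.20).

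H3f3a, the other H3.3 gene, showed smaller values. Its probe A_51_P456237 read 7.26 and 7.67 in XX input, 7.77 and 8.60 in XX IP, 7.82 and 7.99 in XY input, and 9.67 and 10.02 in XY IP. The change was 0.72 (adjusted p = 0.18) in XX and 1.94 (SE 0.42, adjusted p = 0.0041) in XY, just under the 4-fold limit. Without XY input replicate 2 or without XY IP replicate 1 it was called. The other 2 probes, A_52_P1041253 and A_52_P76734, changed by 0.31 and 0.33 in XX and by 1.03 and 1.05 in XY, and neither was called. Less the median of all tested probes, the 3 changes were 0.63, 0.23 and 0.24 in XX and 1.98, 1.06 and 1.08 in XY, under the 50th percentile too. Under normexp they were -1.37, -1.56 and -1.44 in XX and 0.08, -0.62 and -0.54 in XY. H3f3a and H3f3b encode the same protein, and the difference between their changes was not tested.

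**Figure D3:**
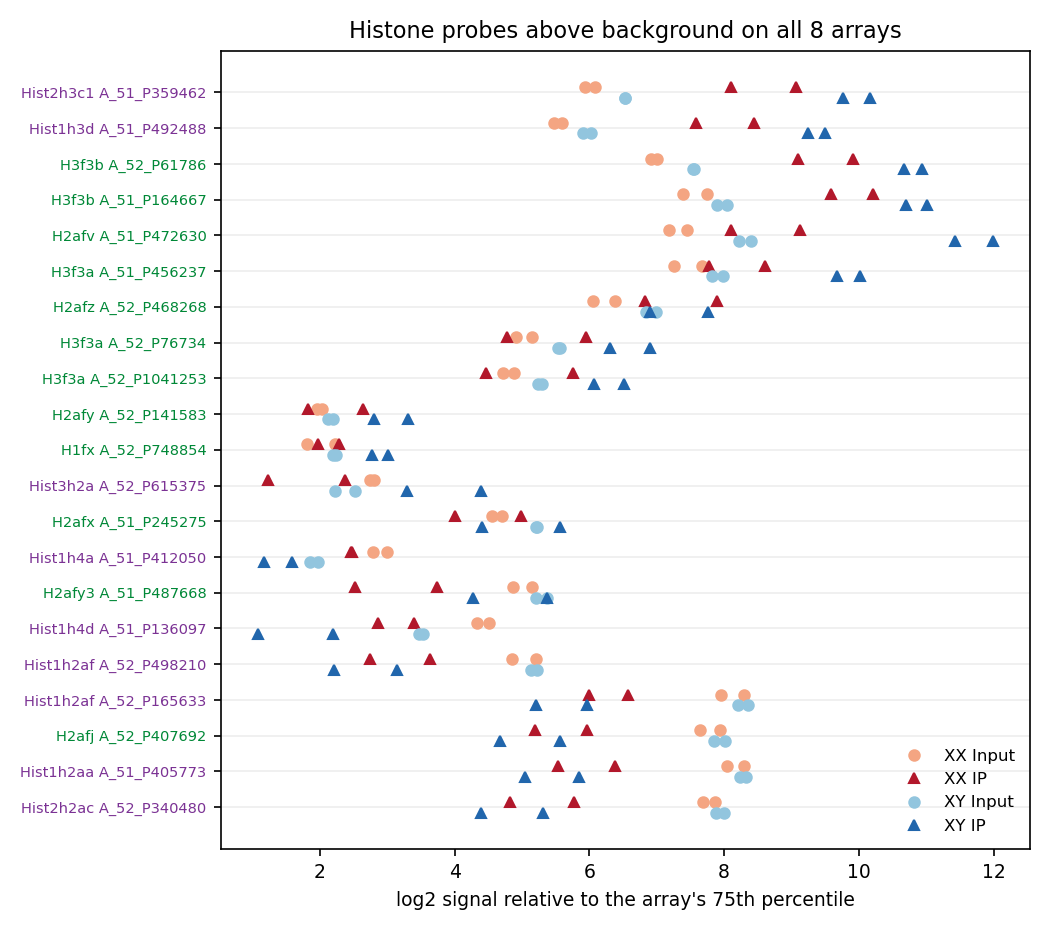
Level of the 21 histone probes above background on all 8 arrays (log2 relative to the array's 75th percentile), one point per array, circles for input and triangles for IP, XX in red and XY in blue. Gene names are purple for cluster and green for variant probes; both Hist H3 probes and H3f3b stand right of their inputs in both sexes, and 5 H2A probes at the bottom stand left of theirs.

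Of the 11 tested cluster H2A probes 4 were called lower in XX and 8 in XY, and of the 9 variant ones 1 in each sex. Over all tested probes 9.91% were called lower in XX and 7.68% in XY. Hist1h2ab, counted in both sexes, was above background on no IP array. Hist1h2aa encodes TH2A, an H2A known from testis, Hist2h2ac and Hist1h2af are ordinary cluster H2A genes, and H2afj encodes the variant H2A.J. Hist1h2aa (A_51_P405773, mm8 chr13:23942255-23942314) read 8.04 and 8.30 in XX input, 5.54 and 6.38 in XX IP, 8.23 and 8.33 in XY input, and 5.05 and 5.85 in XY IP. It fell by 2.21 (SE 0.44, adjusted p = 0.0019) in XX and by 2.83 (SE 0.44, adjusted p = 0.00068) in XY. H2afj (A_52_P407692, mm8 chr6:136772856-136772915) read 7.65 and 7.94, 5.19 and 5.96, 7.85 and 8.02, and 4.68 and 5.56 in the same order. It fell by 2.22 and 2.82 (adjusted p = 0.0019 and 0.00071). No IP array of either probe reached its lowest input array. Of 4205 other probes H2afj was the one most like Hist1h2aa, with a root mean square difference of 0.04, although their genes lie on chromosomes 6 and 13. Whether the H2A probes bind each other's transcripts, and so read separate genes, was not tested. Both XX calls were lost without XX IP replicate 1, with Hist1h2aa at -1.79 and H2afj at -1.83.

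Hist2h2ac (A_52_P340480, mm8 chr3:96331233-96331292) read 7.69 and 7.87 in XX input, 4.82 and 5.77 in XX IP, 7.88 and 8.0 in XY input, and 4.39 and 5.32 in XY IP. In XX it fell by 2.49 (adjusted p = 0.0012), and in XY it fell by 3.08 (adjusted p = 0.00051), which placed it at percentile 4.68 and percentile 0.958 of all tested probes. The 2 sense probes of Hist1h2af, 308 bases apart, both changed by -1.84 in XX, under the 4-fold limit (adjusted p = 0.0042 and 0.0066), and fell by 2.69 and 2.50 in XY (adjusted p = 0.0007 and 0.0017). A_52_P165633 read 7.96 and 8.29 in XX input and 6.00 and 6.57 in XX IP, and 8.21 and 8.35 in XY input and 5.21 and 5.97 in XY IP. Without XX IP replicate 2 or without XX input replicate 1 both were also called in XX. One more Hist1h2af probe, on the opposite strand, was above background on no array. The values of Hist1h2aa, H2afj, Hist2h2ac and Hist1h2af were below 0 in both sexes under each scaling and background correction tried.

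Other H2A and H2B members read at or near the background of the IP arrays. Where no IP array was above background only a bound is given, and where 1 was, this is said. Hist1h2ab read 1.21 and 0.98 in XX input and 0.87 and 0.89 in XY input and was above background on no IP array. It was at least 1.36-fold lower in the XX IP (adjusted p = 0.0012) and at least 1.33-fold lower in the XY IP (adjusted p = 0.0014), and the XY call was lost without XY IP replicate 2. Hist1h2ak, above background on both XX IP arrays and 1 XY IP array, read 4.04 and 4.30, 2.00 and 2.67, 4.22 and 4.44, and 0.70 and 1.91. It changed by -1.84 in XX (adjusted p = 0.0075) and fell by 3.03 in XY (adjusted p = 0.00065). For Hist1h2ai, seen on 1 IP array of each sex, the change was -1.68 in XX and a fall of 2.39 in XY (adjusted p = 0.0037), and that call was lost without XY IP replicate 1. Of the H2B probes, Hist1h2bk A_52_P388224 alone was called. It read 1.78 and 1.74 in XX input and 1.88 and 2.06 in XY input. It was at least 2.03-fold lower in the XX IP (adjusted p = 0.014) and, with 1 IP array above background and the other set to the lowest level above background, at least 2.41-fold lower in the XY IP (adjusted p = 0.0091), less than the 4-fold limit. The other XX and XY falls with 1 IP array above background stayed past that limit when treated in this way, at 4.03 to 7.59-fold. Both Hist1h2bk calls were lost without IP replicate 1 of the same sex. None of the 8 tested H2B probes was above background on both IP arrays of a sex, so no range of their changes is given.

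Of the H2A.Z genes, H2afv rose in XY. H2afz and H2afv encode the H2A.Z proteins, which replace H2A at gene starts. H2afv (A_51_P472630, mm8 chr11:6328173-6328232) read 7.18 and 7.45 in XX input, 8.10 and 9.13 in XX IP, 8.22 and 8.40 in XY input, and 11.43 and 11.99 in XY IP. The change was 1.30 (adjusted p = 0.031) in XX, under the 4-fold limit, and a rise of 3.40 (SE 0.45, adjusted p = 0.00025) in XY. Both XY IP arrays stood above all other arrays. The XY call was lost under normexp (1.68), normexp with outlying backgrounds replaced (1.33) and the 50th percentile (1.54). In XX both IP arrays stood above both inputs on this scale. Less the median of all tested probes the XX change was 1.21, under the 50th percentile too, and -0.76 under normexp. H2afz (A_52_P468268) read 6.06 and 6.38, 6.83 and 7.89, 6.84 and 6.99, and 6.90 and 7.76. Its change was 1.14 (adjusted p = 0.062) in XX and 0.42 (adjusted p = 0.5) in XY, where the IP range began within that of the input. Less that median the changes were 1.05 and 0.45, and under normexp -1.0 and -1.36. A second probe annotated as H2afz lies on chromosome 6, apart from the gene's other probe on chromosome 3, and was above background on no array.

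The remaining H2A variants were called in neither sex. H2afx encodes H2AX, the variant phosphorylated at DNA breaks. It read 4.56 and 4.70 in XX input, 4.00 and 4.98 in XX IP, 5.22 and 5.21 in XY input, and 4.41 and 5.57 in XY IP, with changes of -0.14 and -0.23 and IP ranges that held the inputs. MacroH2A, found on the inactive X chromosome, is encoded by H2afy. Its probe A_52_P141583 changed by 0.24 in XX, with an adjusted p of 0.66, and by 0.90 in XY, with an adjusted p of 0.1. A_52_P402989, 21225 bases away and above background on 1 IP array of each sex, changed by -1.03 and 0.15. A_52_P179238 was above background on the 2 XX input arrays alone and is given no fold. H2afy3 read 4.87 and 5.15 in XX input, 2.52 and 3.74 in XX IP, 5.37 and 5.21 in XY input, and 4.27 and 5.37 in XY IP. Its change of -1.88 in XX (adjusted p = 0.0095) missed the 4-fold limit and was called without XX IP replicate 2 or XX input replicate 1, and that in XY was -0.47 (adjusted p = 0.48). H2afy2 was above background on 1 XX input array and was not tested.

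Linker histones were mostly below background in the IP. Hist1h1b encodes a replication-dependent H1, and H1f0 encodes H1.0, the variant of cells that have stopped dividing. Hist1h1b read 1.14 and 1.27 in XX input and 1.10 and 1.06 in XY input and was above background on no IP array. It was at least 1.46-fold lower in the XX IP (adjusted p = 0.00086) and at least 1.52-fold lower in the XY IP (adjusted p = 0.00052). H1f0 A_52_P442234 read 1.61 and 1.49 in XX input and 1.91 and 1.72 in XY input and was also above background on no IP array. It was at least 1.86-fold and at least 2.54-fold lower (adjusted p = 0.0016 and 0.0023). The XX call was lost without XX IP replicate 2. The other 2 H1f0 probes, 273 and 279 bases away, were above background on no array. H1fx A_52_P748854 was above background on all 8 arrays and changed by 0.11 in XX and 0.67 in XY, while H1fx A_51_P114843, at 0.67 and 0.32 in XX input and 0.07 and 0.12 in XY input, was not above background on any IP array and is given no fold. Hist1h1c, another replication-dependent H1 gene, read 0.94 and 1.28 in XX input, 0.32 and 1.53 in XX IP, 2.08 and 2.21 in XY input, and 2.32 and 3.24 in XY IP, and its changes of -0.19 and 0.63 were not called.

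The H4 probes above background on all 8 arrays, those of Hist1h4a and Hist1h4d, lay below input in both sexes, and no H4 probe was called in XX. Hist1h4d A_51_P136097 read 4.51 and 4.34 in XX input, 2.87 and 3.40 in XX IP, 3.53 and 3.47 in XY input, and 1.08 and 2.19 in XY IP. Both IP arrays were below both inputs in each sex. The change was -1.29 (adjusted p = 0.033) in XX and -1.86 (adjusted p = 0.007) in XY. Hist1h4a changed by -0.42 and -0.53 (adjusted p = 0.38 and 0.29). Hist1h4f fell by 2.01 in XY (adjusted p = 0.0084), with 1 of 2 XY IP arrays above background, and the call was lost without XY IP replicate 1 or XY input replicate 2. Hist4h4 A_52_P299703 was above background on no IP array and was at least 1.16-fold lower in the XY IP (adjusted p = 0.006). That call was lost without XY IP replicate 2.

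Probes of 1 gene did not always read alike. Hist3h2a A_52_P184352 read 3.95 and 4.37 in XX input, 1.04 and 2.91 in XX IP, 4.20 and 4.80 in XY input, and 1.22 and 2.86 in XY IP, with 1 IP array of each sex above background. In XX it fell by 2.18 (adjusted p = 0.016), and in XY it fell by 2.46 (adjusted p = 0.011). Each call was lost without IP replicate 1 or input replicate 2 of the same sex. A_52_P615375, on the same strand and 567 bases further on, read 2.75 and 2.80, 1.23 and 2.38, 2.22 and 2.53, and 3.29 and 4.39, above background on every array. Its change was -0.97 (adjusted p = 0.13) in XX and 1.47 (adjusted p = 0.035) in XY, under the 4-fold limit, and was called at 2.01 without XY IP replicate 1. In XY the 2 probes had changes of opposite sign. H2afj A_52_P286488, 1238 bases beyond the probe that fell, was dim in input and above background on no IP array. In all, 15 member genes had several probes.

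Of the histones known from germ cells, the Hist1h2aa probe was above background on all 8 arrays and the others on fewer. That probe was most like the H2afj one over the arrays. Whether it reads Hist1h2aa apart from other H2A genes was not tested. Hist1h2ba, which encodes the testis H2B, read 1.03 and 1.16 in XX input and 1.35 and 1.33 in XY input and was above background on 1 XY IP array and no XX IP array. It was at least 1.26-fold lower in the XX IP (adjusted p = 0.1) and changed by -0.93 in XY (adjusted p = 0.07), and neither was called. Hist1h1t, which encodes the testis H1, was above background on 1 XX input array and 1 XX IP array (-3.02 and 1.55) and was not tested. H1foo, which encodes the oocyte H1, was above background on both XY input arrays (-1.11 and -1.63), on 1 XX input array (-2.37) and on no IP array. H1fnt, the spermatid H1, was above background on 0 of 8 arrays. The arrays held 0 probes for Hist3h3.

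Whether a change differed between the sexes was tested in the same fit. In the test of the XX change minus the XY change, 0 of 53 members passed (3.30% of all tested probes did), and 3 had an unadjusted p under 0.05. These were Hist3h2a A_52_P615375, with a difference of -2.44 (SE 0.71, limma adjusted p = 0.087), H2afv with -2.10 (SE 0.63, limma adjusted p = 0.1), and Hist1h3a, which was above background on no IP array and is given no difference. When XX IP replicate 2 was left out, Hist3h2a A_52_P615375 passed with -3.01 and H2afv with -2.61, and the former also without XY IP replicate 1 with -2.98. Scaling to the detected probes also called both, Hist3h2a A_52_P615375 with -2.54 and H2afv with -2.20, and other treatments of the signal called 0 to 4 members. Both also passed with a replicate block in the fit, a term for the replicate number within each sex, where 5.27% of all tested probes passed above 0 and 2.79% below 0. All 12 members called in XX were also called in XY, in the same direction.

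In the inputs, 3 cluster members and 0 variants passed the test between the sexes, 2 reading higher in XX (5.87% of all tested probes did) and 1 higher in XY (6.10% of all). The SE of this test includes the larger spread of the IP arrays, so members that did not pass are not shown to be alike. Hist1h1a (A_51_P416509) read 0.55 and 0.32 in XX and -1.43 and -1.30 in XY input, a difference of 1.80 (SE 0.43, adjusted p = 0.017). Hist1h3a (A_51_P518621) read -0.72 and -0.72 in XX and -2.84 and -2.19 in XY, with 1 of 2 XY input arrays above background. It entered the test through XX input, the group where it was high, so its passing is no support for a difference. The genes are neighbours in the chromosome 13 cluster. Both calls were lost when any 1 input array was left out. Hist1h2bc (A_51_P462311), an H2B gene, went the other way, with -0.27 and -0.13 in XX and 2.34 and 2.33 in XY, a difference of -2.54 (SE 0.44, adjusted p = 0.0022), and was called without each array in turn. Under normexp the difference was -1.31 and was not called. In whole gonads, fewer cells of a type and less RNA per cell cannot be told apart. The levels of XY steroidogenic and supporting cell markers moved with sex in the same inputs: 4 of 4 tested steroidogenic markers and 4 of 5 XY supporting cell markers were called higher in XY. Of the 8 tested germ cell markers 2 were called higher in XX and 3 in XY, and of the 2 tested XX supporting cell markers 1 was called higher in XX. The median steroidogenic level was -1.82 and -0.45 in XX input and 3.96 and 3.86 in XY input, and that of the supporting cell markers -0.70 and -0.64 in XX and 1.89 and 1.78 in XY. Their part in the Hist1h2bc difference was not tested.

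By type, most H4 and cluster H1 probes read higher in XX input, and 1 of these 12 passed the test. Of the 7 tested H4 probes, 6 were between 0.92 and 1.07 higher in XX, and Hist1h4h differed by -0.57. No H4 probe was called, and the smallest adjusted p was 0.093, for Hist1h4d A_51_P482070. The SE of this test came from the input and IP arrays together, and replicates differed more in the IPs than in the inputs. A probe that was not called may therefore still differ by more than the spread between the input arrays. The median difference was 0.96 for H4 and 1.16 for the 5 cluster H1 probes, of which Hist1h1c differed by -1.04, beside -0.16 for the 11 cluster H2A probes, -0.45 for the 6 H3 variant probes and -0.00 for all tested probes. Hist1h4a read 3.00 and 2.79 in XX and 1.85 and 1.98 in XY input. The 6 probes lie on chromosomes 3, 6 and 13. When only the 4 input arrays were fitted, 14 members were called higher in XX (26.4%, beside 22.6% of all tested probes) and 11 higher in XY (20.8%, beside 21.5% of all).

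**Figure D4:**
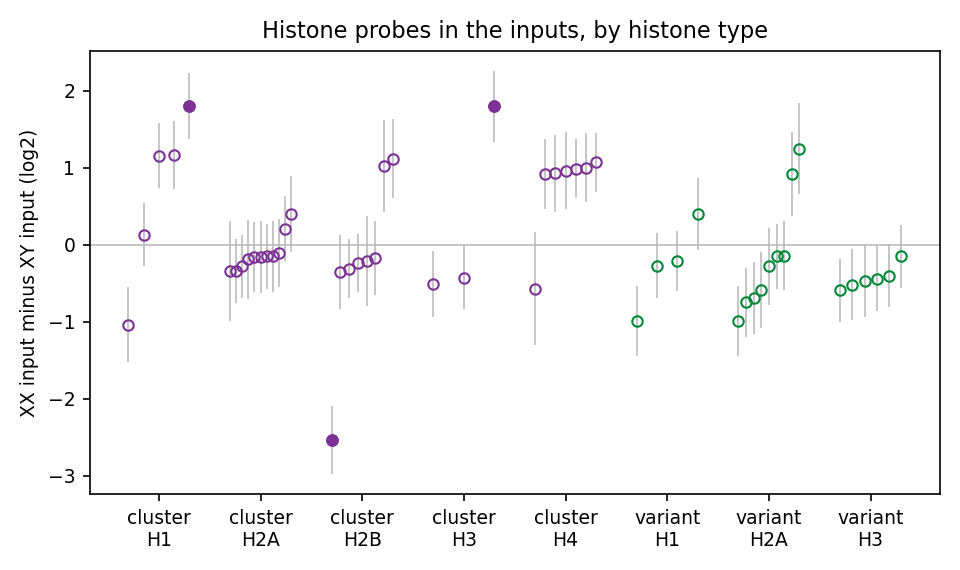
XX input minus XY input (log2) of each tested histone probe, by class and histone type, with the SE of the limma fit as grey bars and filled points for probes past an adjusted p of 0.05. The 3 filled points are Hist1h2bc (-2.54), Hist1h1a (1.80) and Hist1h3a, which entered the test through XX input alone, and 6 of 7 H4 probes lie near 1.

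Among the genes that act on histone mRNA, Slbp rose in both IPs. It encodes the protein that binds the stem-loop of replication-dependent histone mRNAs. Its probe read 5.29 and 5.45 in XX input, 9.59 and 10.17 in XX IP, 4.28 and 4.39 in XY input, and 6.63 and 7.12 in XY IP. It rose by 4.51 in XX (SE 0.40, adjusted p = 6.1e-05) and by 2.54 in XY (SE 0.40, adjusted p = 0.00072), and the sexes differed by 1.97 with an adjusted p of 0.087. The mRNA of the precipitated protein itself, Dazl, rose by 2.69 in XX, with an adjusted p of 0.00031, and by 2.06 in XY, with an adjusted p of 0.002. All IP arrays lay above all inputs of the same sex for both genes. Whether these calls, and those of the lists below, hold under other treatments of the signal was not tested. Scaling to the 50th percentile lowers all probes of a sex alike and moved the median of all tested probes to -1.92 in XX and -1.90 in XY. Under it 1.03% of all tested probes were called higher in XX and 1.20% in XY, so the rises of Slbp and Dazl are no firmer than those of the H3 probes.

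Of the 15 tested genes for histone mRNA processing and decay, 1 was called higher and 1 lower in XX, and 2 higher and 0 lower in XY. The median change in XX was 0.68, with 10 of the genes above background on both IP arrays, and none is given for XY, where 4 were. Over all tested probes 14.0% were called higher and 9.91% lower in XX, and 10.2% and 7.68% in XY, beside which the counts of this and the next lists stand. One of the 2 in XY, Zfp473, was not well above background on any XY array and is given no fold. Npat, the activator of cluster histone transcription, read 1.18 and 1.16 in XX input, 2.74 and 2.65 in XX IP, -0.21 and -0.24 in XY input, and was below background in the XY IP. Its change of 1.53 in XX (adjusted p = 0.0056) missed the 4-fold limit, and it was 1.40 higher in XX than in XY input (adjusted p = 0.029). Casp8ap2, its partner, changed by 0.50 in XX and was at least 1.5-fold lower in the XY IP (adjusted p = 0.027). Lsm10 and Lsm11, of the U7 particle that cuts histone mRNA, changed by -0.60 and -0.86 in XX and by -0.05 and 0.18 in XY. None of these 3 genes was called.

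Of the 23 tested histone chaperone and deposition genes, 2 were called higher and 3 lower in XX, and 1 higher and 2 lower in XY (medians -0.22 and -0.38). Nasp, the carrier of H1 and H3-H4, read 5.64 and 5.69 in XX input, 4.02 and 3.90 in XX IP, 4.92 and 5.06 in XY input, and 1.46 and 2.20 in XY IP. It changed by -1.70 in XX (adjusted p = 0.0048) and fell by 3.16 in XY (adjusted p = 0.00021). Cenpa, the H3 variant of centromeres, read 0.69 and 0.99 in XX input, 2.26 and 3.42 in XX IP, 1.83 and 2.08 in XY input, and 2.80 and 3.63 in XY IP. Its changes of 2.00 (adjusted p = 0.0052) and 1.26 (adjusted p = 0.053) were not called, the first lying just under the limit. Daxx, a chaperone of H3.3, changed by -0.26 and -0.28, and Hira, the other H3.3 chaperone, was not tested. The 24 S phase genes, with Slbp among them, had 2 called higher and 3 lower in XX and 2 higher and 5 lower in XY, with medians of -0.60 and -1.27.

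Markers of cell types were read on the same arrays, and their part in the histone changes was not tested. Germ cell markers had a median change of 1.50 in XX and 1.16 in XY over 8 genes, of which 5 and 6 were above background on both IP arrays. They did not all go 1 way: 2 were called higher and 1 lower in XX, and 2 higher and 0 lower in XY. Of the 5 tested endothelial and blood markers 4 were called lower in XX and 2 in XY, and 1 was above background on both arrays of each IP. In the XX IP 0 of the XY supporting, XX supporting and steroidogenic markers were above background on both arrays. In the XY IP 2 XY supporting, 0 XX supporting and 1 steroidogenic marker were, so no median change is given for these and the endothelial and blood list.

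**Figure D5:**
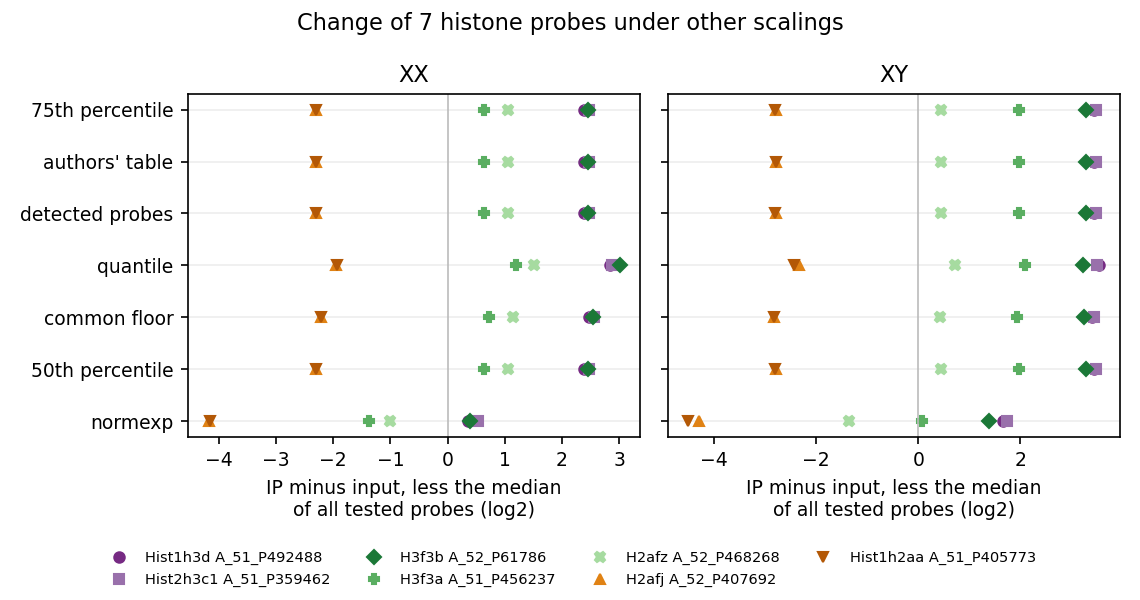
Change (IP minus input, log2) of 7 histone probes, less the median change of all tested probes, under 7 treatments of the signal, XX left and XY right. Hist1h3d, Hist2h3c1 and H3f3b stay right of 0 and H2afj and Hist1h2aa left of 0 in every treatment, while H2afz and, in XX, H3f3a lie left of 0 under normexp.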

How the data were processed

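Per the labels, RNA was labelled with Cy3 and hybridized to 1-colour Agilent whole mouse genome arrays, and features were extracted by the submitters with Feature Extraction, whose version the headers give as 9.5.3.1. The deposited scanner files give processed signal intensity, mean intensity and local background intensity per spot, not normalized between arrays. The deposited value table holds log2 values that the authors scaled to the 75th percentile after setting values under 1 to 1. That table was an alternative here. Positions are those of mm8 per the file headers.

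Spots of a probe were averaged without outlying spots, signals under 1 were set to 1, and log2 values were taken relative to each array's 75th percentile. Of 41174 non-control probes 73 were left out, and 18265 of the other 41101 were tested, those that 1 or more groups had well above background on each array. No probe was saturated. limma 3.58.1 in R 4.3.3 was fitted to all 8 arrays with 1 mean per group (4 residual and 7.82 prior degrees of freedom). All tests were two-sided, with Benjamini-Hochberg adjustment. The labels do not say that replicates came from separate lots, so p-values measure the spread between these arrays. With 2 arrays per group the precision is low. The fit was checked on simulated data in which 200 probes were changed 8-fold. It found 198 of them for the XX IP, 196 for the XY IP, 139 for the difference of the sexes and 197 for the inputs. Each simulated probe had the same spread on all 8 arrays, so this check does not cover the larger spread of the IP arrays.

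Where a group was not well above background on any array, the change is given as a bound: the brighter mean over the mean of the larger of the dim value and the lowest level above background, per array. Such values are normalized log2 means. Member names are those of the array; 55 of 70 probes were matched to RefSeq symbols by accession and 15 by older symbol. Promoters are from RefSeq (GRCm38.p6). Named with values were member probes above background on all 8 arrays, called probes above background on both arrays of each group of 1 side, variant genes with a tested probe, and 8 genes by name (Hist1h1c, Hist1h1t, Hist1h2aa, Hist1h2ba, Hist3h3, H1foo, H1fnt, H2afx), 46 probes in all, besides 11 pathway genes (Slbp, Npat, Casp8ap2, Lsm10, Lsm11, Zfp473, Nasp, Cenpa, Hira, Daxx, Dazl). Other lists comprised histone mRNA processing, chaperones, S phase genes and markers of germ, supporting, steroidogenic, endothelial and blood cells; Mizf and Insl3 had no matching probe. For genes with several probes in these lists the brightest tested one was used. The members and lists were chosen with earlier results of these data known. The alternatives were other scalings (50th percentile, probes detected on all arrays, quantile), normexp, a common floor, other filters, the deposited table, only the arrays of a contrast, a replicate block and leaving out each array.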

Additional observations from a re-analysis of the deposited data

How the results depend on the processing

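The value table of the authors kept the direction and the call of all 164 values of named members. Other treatments of the signal changed the counts of called members, whose main values were 4 higher and 8 lower in XX, 6 higher and 14 lower in XY, 0 for the difference of the sexes, and 2 higher in XX input and 1 in XY input. Normexp gave 0 higher in XX and XY (0.433% and 0.356% of all tested probes), 11 lower in XX and 8 in XY (11.3% and 5.68% of all), 1 higher in XX input (2.49%) and 0 in XY input (1.26%). Normexp with outlying local backgrounds replaced, chosen after seeing the data, gave 0 higher (0.433% and 0.438%) and 11 lower (11.3% and 10.6%) in the IPs, 1 for the difference (0.756% and 0.646%) and 7 higher in XX input (8.03%). The 50th percentile gave 0 higher in both IPs, 36 lower in XX, 29 lower in XY and 1 higher in XX input, where 47.3% and 45.9% of all tested probes were called lower in XX and XY. Detected probes gave 15 lower in XX, where 15.6% of all tested probes were, 2 for the difference (1.92% of all one way and 1.26% the other) and 2 higher in XY input (5.16% of all), and quantile normalization 1 for the difference (2.69% and 2.32% of all). A common floor gave 3 lower in XX and 6 in XY (3.49% and 2.49% of all) and 4 for the difference (3.62% and 2.44% of all). Without a filter on dim probes 21 members in XX and 22 in XY were called higher in the IP, which is 30.0% and 31.4% of members beside 56.8% and 54.4% of all probes, and 0 higher in XX input. Testing only probes above background on all arrays, 21 of them members, gave 3 lower in XX and 5 in XY (8.87% and 5.49% of all 4206 such probes). It gave 1 for the difference (2.33% of all one way and 0.594% the other) and 0 in either input (3.07% of all higher in XX and 1.71% in XY). Fitting only the arrays of the contrast gave 14 higher in XX input and 11 in XY input (22.6% and 21.5% of all tested probes).

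The variant median minus the cluster median, 1.48 in XX and 2.26 in XY, was 0.20 and 0.27 under normexp, 0.20 and 0.45 with backgrounds replaced, 1.29 and 1.87 under quantile normalization, 0.65 and 0.48 with a common floor, 1.79 and 1.54 without a filter and 1.61 and 2.83 over probes above background on all arrays. For Hist4h4 A_52_P299703 the XX change minus the XY change turned from 0.50 to -0.60 with the common floor, both from IP readings below background, which give no direction. The cause of these shifts was not tested.

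Leaving out 1 array at a time gave 4 to 5 members higher and 4 to 14 lower in XX, 6 to 8 higher and 11 to 16 lower in XY, 0 to 2 for the difference, 0 to 4 higher in XX input and 1 in XY input, while the shares of all tested probes ran from 5.77% at 11 to 12.1% at 16 lower in XY and from 2.70% to 8.91% higher in XX input, with class differences of 1.40 to 1.62 and 2.11 to 2.36. The 4 lower in XX came without XX IP replicate 1 (7.55% of members and 8.01% of all tested probes), the 14 (26.4% and 13.1%) and the difference of 2 without XX IP replicate 2, and without XY IP replicate 1 the difference was 1. Without any 1 input array 0 were higher in XX input.

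Same-numbered arrays of a sex deviated from their group means with correlations of 0.07 in XX and 0.09 in XY over all tested probes, and of 0.03 and 0.14 over those above background on all arrays. Not every value was over 0.1, and the numbers were not taken as pairs. Low correlations do not show that same-numbered arrays were unpaired. With the replicate block the counts were the same in the other comparisons. For the difference of the sexes 2 members passed, H2afv (-2.10, adjusted p = 0.038) and Hist3h2a A_52_P615375 (-2.44, adjusted p = 0.011), both below 0. They are 3.77% of members, where 2.79% of all tested probes passed below 0 and 5.27% above 0.

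With IP backgrounds near or above the level of many cluster members, falls to background are bounds only.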

Other observations

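Histone probes that the gene names did not cover were read from the descriptions on the arrays. A probe for a Hist2h2ab transcript (ENSMUST00000090782) fell by 2.39 in XX and by 3.1 in XY, and of 4205 other probes it was the one most like Hist2h2ac, with a root mean square difference of 0.06. The H2A probe MGC73635 changed by -1.97 in XX, under the 4-fold limit, and fell by 2.54 in XY. The H3 probe NP063432 changed by 0.55 and 1.29 and was not called.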
